A study of Mus musculus with 16 samples.

Results

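The collagen genes were taken as every listed gene whose symbol consists of Col, a number, the letter a and a number, which gave 41 of 16118 genes. GENCODE M21, the mouse annotation matched to the gene identifiers, names 44 such genes, and Col10a1, Col19a1 and Col6a4 were not analysed here. Of the 41, 38 averaged 1 CPM or more over all libraries and were tested (CPM, counts scaled to a common library size). Col17a1, Col20a1 and Col28a1, with means of 0.780, 0.743 and 0.281 CPM, lay under that minimum. The 41 comprised 11 fibrillar collagens, 6 chains of the basement membrane network (type IV), 5 beaded-filament chains (type VI), 8 fibril-associated collagens, 2 short-chain network collagens, 2 multiplexins, 4 transmembrane collagens and 3 others.

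The 16 RNA-seq libraries came from 8 mouse embryos at E15.5, whose atria and ventricles were sequenced separately once the outflow tract had been removed. The 4 embryos called dKO were Meis1flox/flox; Meis2flox/flox and carried αMHC-Cre (tg/wt), so that Cre was driven by a promoter of cardiomyocytes, while the 4 control embryos had the same floxed alleles without Cre (aMHC +/+). Meis1 and Meis2 encode TALE homeobox transcription factors. The series design asks how dKO tissue differs from control tissue in each chamber, and names constitutive and inducible deletion without saying which was used. The protocol describes 4 litters with a dKO and a control embryo each, but the numbers in the titles group the embryos otherwise. There are 3 such numbers: title group A held dKO embryo 1 and no control, title group B held dKO embryos 2 and 3 and control embryos 1 and 2, and title group C held dKO embryo 4 and control embryos 3 and 4. What the numbers stand for is not stated.

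Collagens are extracellular proteins whose chains are wound into a triple helix. Fibrillar types I, III and V form the load-bearing fibres of the heart's interstitium and valves and are made mainly by fibroblasts and related mesenchymal cells. Type IV networks form the basement membranes around cardiomyocytes and vessels, type VI filaments link cells to fibres, fibril-associated collagens bind the surface of fibres, multiplexins sit at basement membranes, and transmembrane collagens are anchored in the cell surface. Chains are hydroxylated and folded in the endoplasmic reticulum, trimmed by proteases and cross-linked by lysyl oxidases outside the cell.

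Among the 5 collagen genes that differed between dKO and control atria , a RefSeq promoter window on GRCm38.p6 was at hand for Col4a6, Col5a1 and Col13a1. Col2a1, which rose most, and Col14a1 had no window and are not shown. Promoters are shown because MEIS proteins are known to bind TGACAG. The 250 bases before each start site follow, 5′ to 3′ on the gene's strand, with matches on either strand in capitals. Searched were the composite PBX and MEIS site (TGATT directly followed by GACAG, a stretch that contains TGACAG), the GC box GGGCGG, the CAAT box CCAAT and the TATA motif TATAAA. Col4a6 lies at chrX:141474077-141474326 on the minus strand, Col5a1 at chr2:27886175-27886424 on the plus strand, and Col13a1 at chr10:61979109-61979358 on the minus strand.
Col4a6: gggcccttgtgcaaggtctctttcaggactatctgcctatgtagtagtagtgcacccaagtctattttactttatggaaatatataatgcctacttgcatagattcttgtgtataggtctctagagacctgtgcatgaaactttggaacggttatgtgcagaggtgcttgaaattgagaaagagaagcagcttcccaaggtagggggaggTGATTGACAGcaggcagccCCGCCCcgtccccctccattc
Col5a1: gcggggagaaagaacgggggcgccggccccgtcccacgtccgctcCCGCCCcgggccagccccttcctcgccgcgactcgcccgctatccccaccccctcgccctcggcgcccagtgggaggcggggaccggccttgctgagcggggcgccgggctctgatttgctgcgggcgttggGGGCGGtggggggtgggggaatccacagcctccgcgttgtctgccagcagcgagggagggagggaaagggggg
Col13a1: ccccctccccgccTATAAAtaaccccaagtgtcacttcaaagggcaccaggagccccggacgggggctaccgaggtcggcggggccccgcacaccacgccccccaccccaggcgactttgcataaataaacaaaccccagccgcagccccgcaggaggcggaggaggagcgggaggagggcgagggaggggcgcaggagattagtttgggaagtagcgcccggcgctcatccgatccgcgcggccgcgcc
In Col4a6 the capitals mark the composite site, which starts 40 bases before the start site, and a GC box on the opposite strand. In Col5a1 they mark 2 GC boxes, 1 on each strand, and in Col13a1 a TATAAA. Of the 41 members 32 had a window in the table. TGACAG was found in the 250 bases of 4 of these, Col3a1, Col4a6, Col6a6 and Col7a1, and in 15.9% of all 32851 promoter windows. The composite site was found in Col4a6 alone among the 32 members and in 0.198% of all windows (65). A GC box was found in 20 of the 32 members and in 32.7% of all windows, CCAAT in 12 members and 33.9% of windows, and TATAAA in 4 members and 12.4% of windows. Binding was not measured.

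The libraries held 7.88 to 23.0 megareads in the listed genes. All dKO ventricles (7.88 to 14.3 megareads) had fewer reads than all control ventricles (15.6 to 23.0), and a floor of 3 reads equalled 0.110 to 0.312 CPM. Meis1 averaged 26.1 ± 3.19 CPM in dKO atria and 40.4 ± 2.61 CPM in control atria (SD, n = 4 each), with an exact two-sided permutation p of 0.0286, which is the lowest possible with 4 against 4. Meis2 averaged 26.5 ± 1.90 CPM in dKO atria and 25.4 ± 2.04 CPM in control atria (exact permutation p = 0.486). In ventricles Meis2 averaged 23.4 ± 2.85 CPM (dKO) and 39.2 ± 3.46 CPM (control; exact permutation p = 0.0286), and Meis1 40.9 ± 2.41 CPM (dKO) and 41.5 ± 3.96 CPM (control; exact permutation p = 0.8). The deposited values are given per gene, so loss of the floxed exons cannot be read from them and was not tested. The chamber labels fitted their markers: 8 atrial myocyte markers summed to 13168 to 14487 CPM in dKO atria and 10426 to 12390 CPM in control atria, and to at most 4801 CPM in any ventricle. Ventricular myocyte markers, also 8, summed to 339 to 1151 CPM in dKO atria and 610 to 1806 CPM in control atria, and to at least 18587 CPM in any ventricle. In whole tissue, fewer cells of a type and less RNA per cell cannot be told apart.

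Per kilobase of transcript, Col1a1, Col3a1 and Col1a2, the chains of the main interstitial fibres, stood above the other collagens in atria when the length of the principal transcript was used. They measured 474 ± 110 (SD), 460 ± 99.7 and 360 ± 76.5 CPM per kilobase in dKO atria and 344 ± 45.4, 345 ± 49.9 and 255 ± 35.9 CPM per kilobase in control atria. In control ventricles Col3a1 (238 ± 13.9) was followed by Col1a1 (204 ± 20.9), then Col4a1 (176 ± 8.94) and Col1a2 (168 ± 12.99), whose means lay within an SD of each other, and the order was the same in dKO ventricles. The order depends on the length chosen: per kilobase of union exon, Col4a1 (156) lay above Col3a1 (135) and Col1a2 (72.4) in control ventricles, and level with Col1a2 in control atria (111 and 110 CPM per kilobase). By principal transcript, Col4a1 and Col4a2, the chains of the common basement membrane network, and Col18a1, a multiplexin whose C-terminal fragment is endostatin, came next in both genotypes in atria. All 41 genes together held 0.823% to 1.78% of the listed CPM in a library. Their summed level was 9541, 12531, 11298 and 13578 CPM in dKO atria 1 to 4, against 9036, 8774, 10172 and 8154 CPM in control atria 1 to 4. The sums of dKO atria 2 to 4 lay above every control sum and that of dKO atrium 1 lay inside the control range. In ventricles they spanned 6748 to 8079 CPM (dKO) and 7187 to 7954 CPM (control). Fibrillar chains held 69.8% of the collagen CPM in dKO atria, 66.8% in control atria, 54.5% in dKO ventricles and 55.4% in control ventricles.

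**Figure D1:**
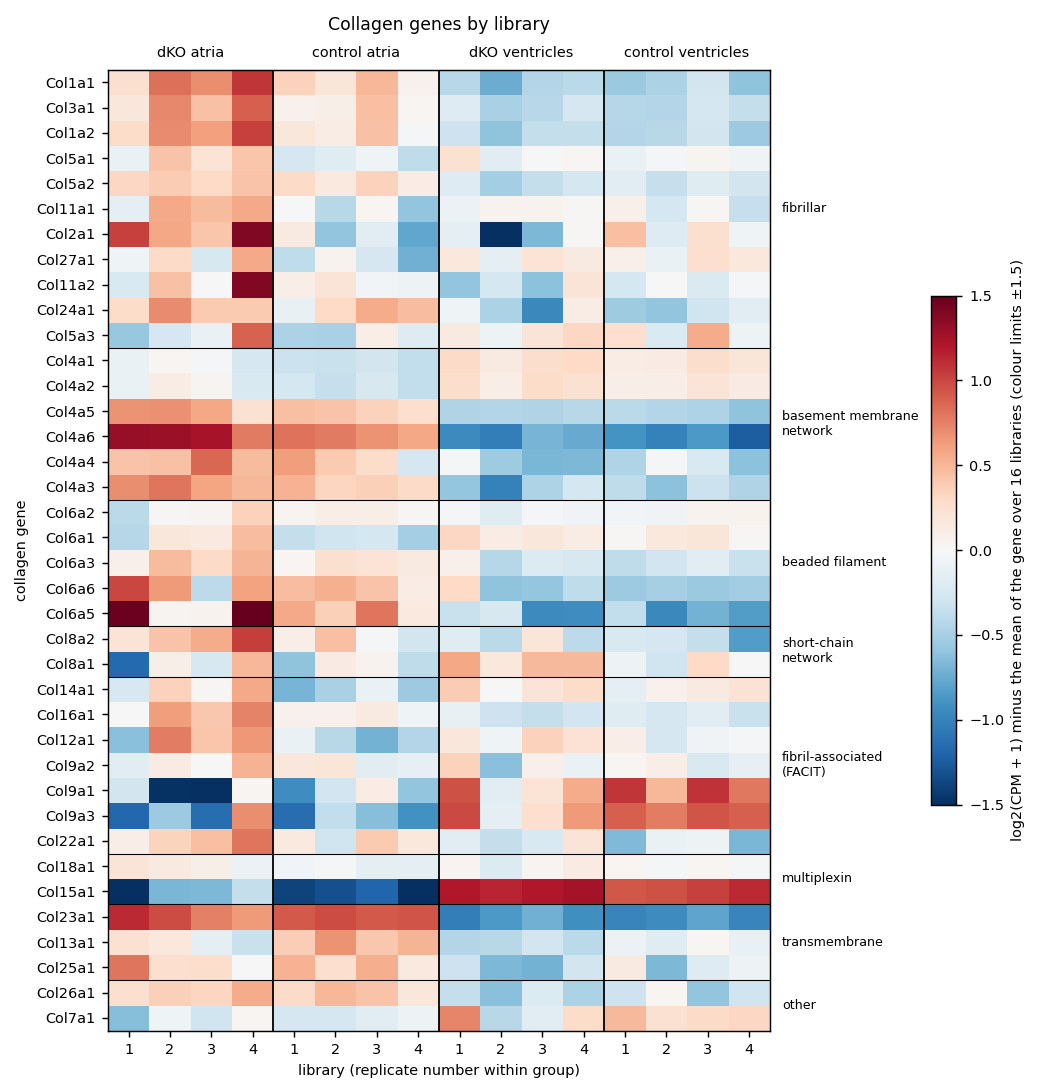
Level of the 38 tested collagen genes (rows, grouped by class, highest mean CPM first within a class) in each of the 16 libraries (columns), as log2(CPM + 1) minus the gene's mean over all libraries. Most fibrillar rows are reddest in dKO atria 2 to 4, Col15a1 is blue in atria and red in ventricles, and Col4a6 and Col23a1 show the reverse.

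In dKO against control atria, 4 collagen genes rose and 1 fell. Col2a1 rose most, with a log2 difference of 1.20, followed by Col14a1 (0.63), Col5a1 (0.45) and Col4a6 (0.44), while Col13a1 fell by 0.51. These 5 are 13.2% of the 38 tested members. Among all 13950 genes tested 7.47% were called, 4.04% higher and 3.43% lower in dKO atria (limma moderated test on log2(CPM + 1), Benjamini-Hochberg adjusted p under 0.05). The median log2 difference was 0.27 over the 38 collagen genes and -0.0046 over all genes tested. The mean was higher in dKO atria for 32 of the 38 (84.2%), against 49.5% of all genes. All 11 fibrillar and all 6 basement membrane chains had a positive difference, with medians of 0.44 and 0.27, whereas all 3 tested transmembrane collagens had a negative one. Groups did not overlap for 3 members that were higher (Col2a1, Col4a1 and Col4a2) and 1 that was lower (Col13a1), or 10.5% of members, against 14.1% of all genes (7.29% higher and 6.82% lower).

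**Figure D2:**
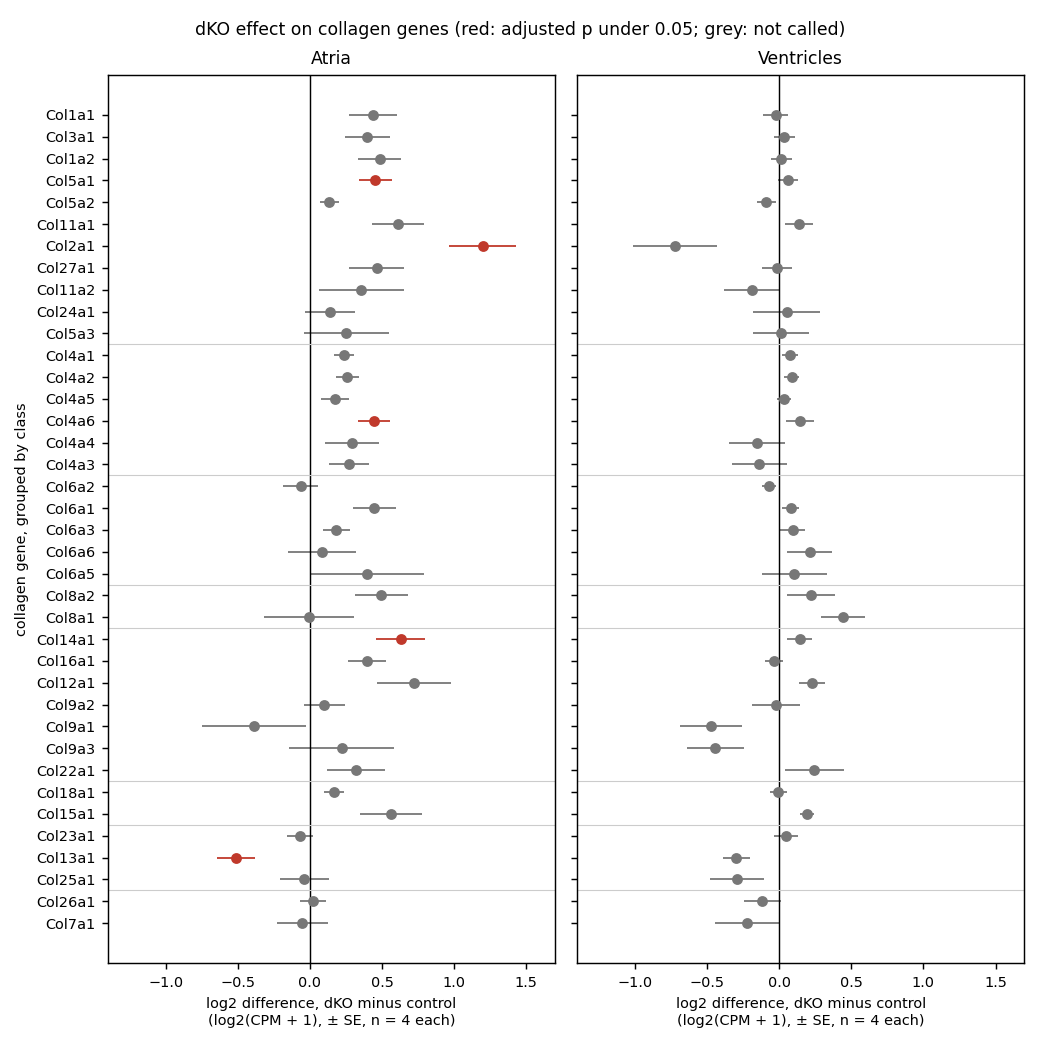
Difference of dKO minus control on the log2(CPM + 1) scale for each tested collagen gene, with its standard error, in atria (left) and ventricles (right), with 4 libraries a group. In atria Col2a1, Col5a1, Col14a1 and Col4a6 are called higher and Col13a1 lower, and in ventricles no gene is called.

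Among the fibrillar collagens, Col2a1 (ENSMUSG00000022483, chromosome 15, 97975602 to 98004695, GRCm38, minus strand), the type II chain best known from cartilage and also made in developing valves, had 36.0, 26.2, 23.3 and 46.7 CPM in dKO atria 1 to 4, against 18.99, 11.1, 15.4 and 9.65 CPM in control atria 1 to 4. Every dKO atrium lay above every control atrium. The log2 difference was 1.20 ± 0.23 (SE; limma adjusted p = 0.00907). It held when any library was left out (1.02 to 1.36). Within title group B the 2 dKO atria (26.2 and 23.3 CPM) were above the 2 control atria (18.99 and 11.1 CPM) by 0.73, which did not pass the test in that fit of 4 libraries (limma adjusted p = 0.0788). Within title group C dKO atrium 4 had 46.7 CPM and the 2 control atria 15.4 and 9.65 CPM.

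None of the other collagens known from cartilage was called in atria. Col11a1, a fibrillar chain that joins type II in cartilage fibrils, had 19.4, 32.6, 30.7 and 32.7 CPM in dKO atria, against 21.7, 16.1, 22.1 and 14.1 CPM in control atria. dKO atrium 1 lay inside the control range and the other 3 lay above it (0.61, limma adjusted p = 0.0689). Col9a2 had 14.1 to 23.4 CPM in dKO atria and 14.1 to 18.3 CPM in control atria (0.10, adjusted p = 0.764). Summed with Col2a1, Col9a1, Col9a3 and Col11a2, these chains had 74.6 to 123 CPM in dKO atria and 45.2 to 64.8 CPM in control atria, without overlap. That sum includes Col2a1, whose groups did not overlap on its own, so it does not show a rise of the other chains. Col9a1, Col9a3 and Col11a2 were scarcer. Col9a1 had 3.94, 1.15, 1.06 and 5.13 CPM in dKO atria and 2.13 to 5.47 CPM in control atria, and Col11a2 had 1.77, 3.42, 2.25 and 7.53 CPM in dKO atria and 2.09 to 2.71 CPM in control atria. Col9a3 stood at 7.73 CPM in dKO atrium 4 and at 1.39 to 2.69 CPM in dKO atria 1 to 3, against 1.46 to 3.20 CPM in control atria. dKO atrium 4, the library with the most Col2a1, thus also had the most Col9a1, Col11a2 and Col9a3 among dKO atria. This is not particular to these chains, since dKO atrium 4 was the highest dKO atrium for 24 of the 38 members. Of 6 chondrocyte markers 4 were in the table (Acan, Comp, Hapln1 and Sox9), none was called, and they summed to 30.8 to 44.8 CPM in dKO atria and 27.8 to 38.1 CPM in control atria. Acan, the proteoglycan aggrecan, had 6.38 CPM in dKO atrium 4 and 0.245 to 0.777 CPM in dKO atria 1 to 3. Its log2 difference between dKO and control atria was 0.12 ± 0.47 (SE, limma adjusted p = 0.926). Valve mesenchyme markers summed to 104 to 145 CPM in dKO atria and 108 to 143 CPM in control atria, with 0 of 8 called in this limma fit. What part such cells have in the Col2a1 difference was not tested.

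Col5a1 (ENSMUSG00000026837, chromosome 2, 27886425 to 28039514, plus strand), whose type V chain takes part in starting fibrils and limits their width, had 349, 502, 430 and 500 CPM in dKO atria, against 314, 330, 359 and 287 CPM in control atria. dKO atrium 1 lay inside the control range and the other 3 lay above it (log2 difference 0.45 ± 0.11, limma adjusted p = 0.0337). Its partner chain Col5a2 had 345 to 379 CPM in dKO atria and 303 to 357 CPM in control atria (0.13, adjusted p = 0.282). The most abundant fibrillar chains did not pass the test: Col1a1 had 1981, 2985, 2733 and 3548 CPM in dKO atria, against 2141, 1906, 2369 and 1756 CPM in control atria (0.44 ± 0.16, limma adjusted p = 0.151). dKO atrium 1 was again inside the control range. Col1a2 (0.48, adjusted p = 0.0809) and Col3a1 (0.40, adjusted p = 0.171) had the same order of libraries, with dKO atrium 4 highest and dKO atrium 1 lowest among the dKO atria. An annotated gene, Gm47302, overlaps 141 exon bases of Col3a1 on the same strand, which leaves the Col3a1 count uncertain to that extent.

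Among the basement membrane chains, Col4a6 (ENSMUSG00000031273, chromosome X, 141165403 to 141474076, minus strand), a chain of the type IV network found in smooth muscle and some epithelial basement membranes, had 169, 168, 161 and 117 CPM in dKO atria, against 120, 117, 109 and 102 CPM in control atria. dKO atrium 4 fell inside the control range and the other 3 lay above it (0.44 ± 0.11, limma adjusted p = 0.0309). Col4a5, which lies head to head with Col4a6 at a distance of 1308 bases and is its partner in that network, had 412, 413, 384 and 302 CPM in dKO atria, against 353, 346, 326 and 306 CPM in control atria (0.17, adjusted p = 0.36). Col4a1 had 967, 1059, 1013 and 867 CPM in dKO atria and 803 to 852 CPM in control atria, so that the groups did not overlap, and its log2 difference of 0.24 ± 0.07 did not pass the test (limma adjusted p = 0.0783). Its head-to-head neighbour Col4a2 behaved alike (0.26, adjusted p = 0.0695). The exons of Col4a1 and Col4a2 overlap by 22 bases on opposite strands, and use of strand is not given in the sources used here. The scarce chains Col4a3 (0.27, adjusted p = 0.3) and Col4a4 (0.29, adjusted p = 0.443) were at 2.58 to 6.44 CPM in dKO atria and 2.09 to 5.32 CPM in control atria.

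Among the fibril-associated collagens, Col14a1 (ENSMUSG00000022371, chromosome 15, 55307750 to 55520803, plus strand), which coats type I fibres, had 72.9, 111, 87.7 and 129 CPM in dKO atria, against 52.9, 61.3, 80.9 and 59.3 CPM in control atria. dKO atrium 1 lay inside the control range (0.63 ± 0.17, limma adjusted p = 0.0463). Col12a1, its close relative, had 29.4, 78.6, 61.8 and 72.7 CPM in dKO atria and 27.6 to 42.7 CPM in control atria, and its larger difference of 0.72 ± 0.26 did not pass the test (adjusted p = 0.13). Col16a1 did not either (0.39, adjusted p = 0.107). Of the beaded-filament chains Col6a1, Col6a2, Col6a3, Col6a5 and Col6a6 none was called, with differences of -0.06 to 0.45. The multiplexin Col15a1, found at the basement membranes of muscle and capillaries, had 13.0, 24.7, 24.9 and 31.3 CPM in dKO atria and 12.4 to 17.1 CPM in control atria (0.56, adjusted p = 0.157).

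The called member that fell, Col13a1 (ENSMUSG00000058806, chromosome 10, 61838236 to 61979108, minus strand), encodes a transmembrane collagen of cell adhesion sites. It had 14.8, 14.03, 11.2 and 9.69 CPM in dKO atria, against 16.4, 20.6, 16.8 and 18.2 CPM in control atria, and the groups did not overlap (-0.51 ± 0.13, limma adjusted p = 0.0357). Col23a1, the most abundant transmembrane collagen per kilobase, had 70.7 to 99.0 CPM in dKO atria and 86.2 to 90.4 CPM in control atria (-0.07, adjusted p = 0.741). Short-chain network and other collagens held no call in atria. Col8a2, a chain of hexagonal networks best known from the cornea, had 12.5 to 23.1 CPM in dKO atria and 8.68 to 14.98 CPM in control atria (0.49, limma adjusted p = 0.149). Col26a1 had 33.7 to 42.1 CPM in dKO atria and 31.99 to 40.3 CPM in control atria (0.02, adjusted p = 0.925).

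**Figure D3:**
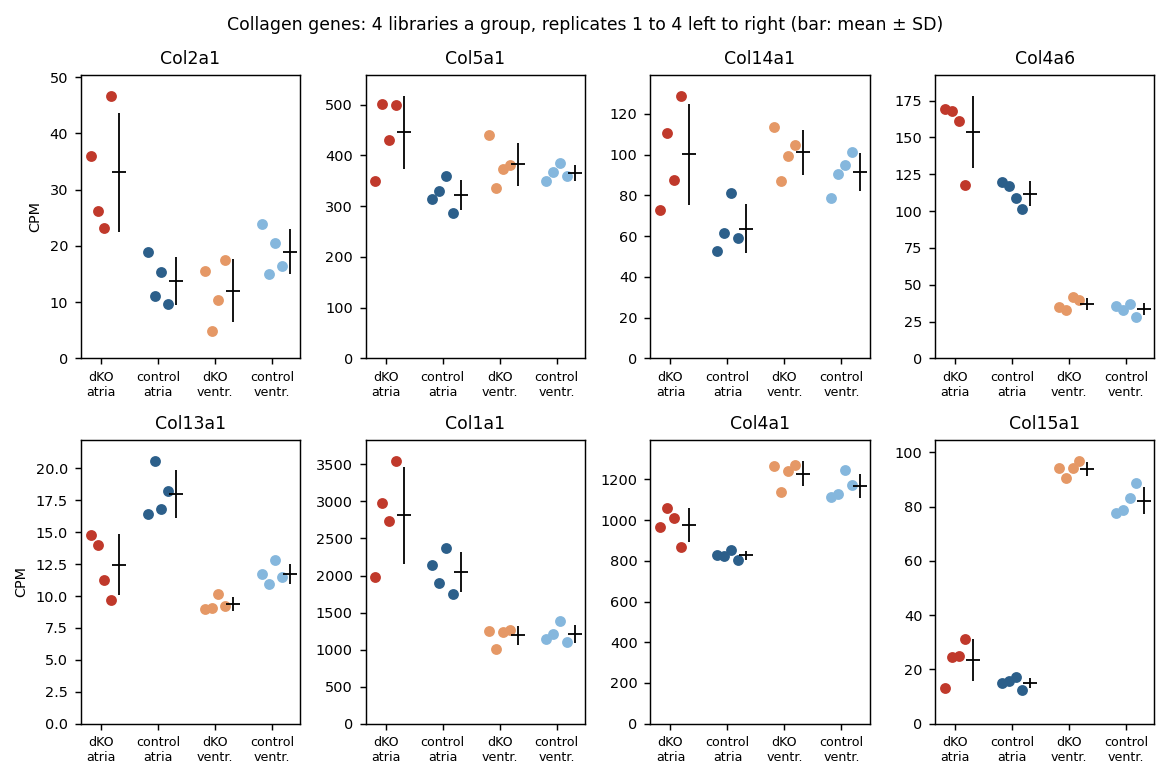
CPM of 8 collagen genes in each library, with the mean and SD of the 4 libraries of a group as a bar to the right of the points. In atria the dKO and control points of Col2a1, Col13a1 and Col4a1 do not overlap, dKO atrium 1 is the low point of Col5a1, Col14a1 and Col1a1, and dKO atrium 4 is the low point of Col4a6 and Col4a1.

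The dKO atria differed among themselves by class. dKO atrium 1, the lone embryo of title group A, was the lowest dKO atrium for 23 of the 38 members, 8 of them among the 11 fibrillar chains. dKO atrium 4 was the highest for 24 members, 9 of them fibrillar, and the lowest for 5 of the 6 basement membrane chains. Without dKO atrium 1, 12 members were called (31.6% of members, against 7.68% of all genes). Of these, 11 were higher (Col1a1, Col1a2, Col2a1, Col3a1, Col5a1, Col11a1, Col12a1, Col14a1, Col15a1, Col16a1 and Col6a1), and Col4a6 lost its call (limma adjusted p = 0.0705). Without dKO atrium 4, 6 were called, all higher (Col2a1, Col4a1, Col4a2, Col4a5, Col4a6 and Col18a1), against 8.61%. Without dKO atrium 2 there were 2 calls (5.26% of members, against 5.33% of all genes) and without dKO atrium 3 there was 1 (2.63%, against 5.08%). Without control atrium 1, 2, 3 or 4 there were 2, 1, 3 and 1 (5.26%, 2.63%, 7.89% and 2.63% of members), against 5.48%, 5.02%, 6.01% and 4.98% of all genes. Col14a1 and Col5a1 each lost the call when dKO atrium 2, 3 or 4 or control atrium 1, 2 or 4 was omitted (limma adjusted p 0.0702 to 0.126 and 0.0551 to 0.103). Col13a1 lost it when dKO atrium 3 or 4 or any control atrium was omitted (adjusted p 0.0518 to 0.112), and Col4a6 when dKO atrium 2 or 3 or control atrium 2, 3 or 4 was (adjusted p 0.0635 to 0.0968). With title number as a covariate 14 members were called, 13 higher and 1 lower (36.8% of members, against 9.98% of all genes). That fit draws nothing for the difference from dKO atrium 1, whose title group held no control. Among the embryos of title group B alone, which also leaves out dKO atrium 1, 13 were called, all higher (34.2% of members, against 6.77% of all genes). A fit to all 16 libraries with the embryo as a block called 13 (34.2% of members, against 10.5% of all genes). DESeq2 on the reads recovered from the CPM values called 11 (28.9% of members, against 11.1% of all genes). With no filter on low values limma called Col2a1 alone (2.44% of members, against 5.87% of all genes). The summed fibrillar level was 8712 and 7743 CPM in the dKO atria of title group B and 5992 and 5715 CPM in its control atria. In title group C it was 10178 CPM in the dKO atrium and 7107 and 5306 CPM in the control atria, and dKO atrium 1 of title group A had 6130 CPM.

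Lists of genes that make, process or bind collagen also held calls in dKO atria, read here against the 7.47% of all genes that were called (4.04% higher and 3.43% lower). Of 11 tested genes for propeptide processing and cross-linking, 5 rose and none fell (median log2 difference 0.42, against -0.0046 over all genes). Loxl1, a lysyl oxidase, had 96.5, 95.0, 93.7 and 116 CPM in dKO atria, against 74.0, 75.5, 77.8 and 70.3 CPM in control atria (0.42, limma adjusted p = 0.00429). Pxdn, the peroxidase that cross-links type IV collagen, had 281 to 340 CPM in dKO atria and 223 to 255 CPM in control atria (0.40, adjusted p = 0.00593), and Adamts3, which removes N-propeptides, 9.04 to 16.4 CPM in dKO atria and 6.73 to 8.95 CPM in control atria (0.76, adjusted p = 0.0156). Of 15 genes for fibril-binding partners, 6 rose and none fell (median 0.40). Fmod, the proteoglycan fibromodulin, had 82.7, 82.2, 94.4 and 78.5 CPM in dKO atria, against 56.7, 52.4, 49.1 and 45.1 CPM in control atria (0.72, limma adjusted p = 0.000248), and Thbs1 (0.48, adjusted p = 0.00546) and Bgn, biglycan (0.46, adjusted p = 0.00999), rose too.

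Of 22 genes for biosynthesis in the endoplasmic reticulum, 4 rose and 1 fell (median 0.14), where 7.47% of all genes were called. P4ha3, a subunit of prolyl 4-hydroxylase, had 20.1 to 26.8 CPM in dKO atria and 14.5 to 16.3 CPM in control atria (0.52, limma adjusted p = 0.00617). Serpinh1, the collagen chaperone HSP47, had 1029 to 1172 CPM in dKO atria and 861 to 931 CPM in control atria (0.27, adjusted p = 0.0307). Tmem38b, a channel of the endoplasmic reticulum, fell (-0.32, adjusted p = 0.0316). Of 11 genes for degradation and its inhibitors 2 rose, Mmp2, a gelatinase (0.45, adjusted p = 0.0293), and Reck, a membrane inhibitor of metalloproteinases (0.34, adjusted p = 0.00639). Of 14 regulators 2 rose and 1 fell: Smad7, an inhibitor of TGF-beta signalling (0.40, adjusted p = 0.0117), Tcf21, a fibroblast transcription factor (0.44, adjusted p = 0.043), and Smad3, a TGF-beta effector (-0.23, adjusted p = 0.0215). Of 10 collagen receptors 1 fell, a share near that of all genes: Ddr1, a receptor tyrosine kinase. Ddr1 had 164 to 201 CPM in dKO atria and 226 to 273 CPM in control atria (-0.49, limma adjusted p = 0.00245), and 159 to 189 CPM in dKO ventricles and 237 to 264 CPM in control ventricles (-0.53, adjusted p = 0.000531).

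Markers of other cell types were measured beside the collagens. Fibroblast markers summed to 2170 to 2699 CPM in dKO atria and 1963 to 2124 CPM in control atria, with no overlap. Of these 12, Fbln1, Dcn and Tcf21 rose and Gsn fell (limma adjusted p 0.00633 to 0.043). Smooth muscle and pericyte markers summed to 1128 to 1548 CPM in dKO atria and 884 to 1011 CPM in control atria, again with no overlap. Of these, 4 of 10 rose (Cspg4, Acta2, Pdgfrb and Myh11) and 1 fell, against 7.47% of all genes called. The 1 that fell, Abcc9, had the smallest adjusted p of the list (-1.12, limma adjusted p = 2.2e-06). Epicardial markers summed to 514 to 612 CPM in dKO atria and 439 to 503 CPM in control atria, with 1 of 12 (Msln) higher. Macrophage markers summed to 108 to 183 CPM in dKO atria and 107 to 128 CPM in control atria, with 1 of 10 (C1qb) higher, and endothelial markers to 1188 to 1605 CPM in dKO atria and 1295 to 1349 CPM in control atria, with 1 of 12 (Kdr) lower. A count of 1 in a list of 10 or 12 is near the share of all genes called. In glial, neuronal and red blood cell lists 0 of 5 and 0 of 7 tested markers were called by limma. dKO atrium 1 had the lowest fibroblast, smooth muscle and macrophage sums of the dKO atria. None of these markers was without reads in all libraries. The part of cell composition in the collagen differences was not tested.

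In dKO against control ventricles limma called none of the 38 members, against 2.0% of all genes. At an unadjusted p under 0.05 there were 7, or 18.4%, against 12.8% of all genes. The median log2 difference was 0.03 over the members and -0.02 over all genes. Nearest to a call was Col15a1 (ENSMUSG00000028339, chromosome 4, 47208161 to 47313167), with 94.1, 90.3, 94.1 and 96.8 CPM in dKO ventricles, against 77.8, 78.9, 83.0 and 88.8 CPM in control ventricles. The groups did not overlap, and the log2 difference was 0.19 ± 0.05 (limma adjusted p = 0.0886). On the recovered reads, edgeR and DESeq2 each called 1 member, Col15a1, at 0.21 (adjusted p = 0.0445 and 0.012). This is 2.63% of members, against 1.86% and 3.36% of all genes. limma called it without control ventricle 4 (0.23, adjusted p = 0.048), where 1.39% of all genes were called, and over its alternatives the adjusted p lay between 0.012 and 0.73. Col13a1 had 8.98 to 10.2 CPM in dKO ventricles and 10.9 to 12.8 CPM in control ventricles, again without overlap and not called (-0.30, adjusted p = 0.181). Non-overlap was seen for these 2 members, or 5.26%, against 8.11% of all genes. The fibrillar chains Col1a1 (-0.02, adjusted p = 0.949), Col3a1 (0.04, 0.887) and Col1a2 (0.02, 0.959) showed differences smaller than their standard errors. Of the pathway genes 1 was called in ventricles, Ddr1.

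Whether the dKO effect differed between the chambers was tested in all 16 libraries with the embryo as a block. The difference was called for 1 member, Col2a1, at -1.92 ± 0.38 (ventricles minus atria, limma adjusted p = 0.00756), or 2.63% of members, against 2.64% of all genes (1.33% lower). Col2a1 had 15.45, 4.83, 10.4 and 17.4 CPM in dKO ventricles, against 23.9, 14.97, 20.5 and 16.5 CPM in control ventricles (-0.72 ± 0.29, limma adjusted p = 0.309), opposite in sign to its difference in atria. The call of the difference between chambers held in all 16 alternatives (-2.05 to -1.55). Of the 38 members, 34 had a negative difference between chambers, including all 11 fibrillar, all 6 basement membrane and all 7 tested fibril-associated chains, with a median of -0.26, against -0.01 over all genes. Without dKO embryo 1, 9 members were called (23.7%, against 3.37% of all genes), all lower (Col1a1, Col1a2, Col2a1, Col5a1, Col6a1, Col12a1, Col14a1, Col15a1 and Col16a1). Without dKO embryo 4 there were 2, Col2a1 and Col4a6 (5.26% of members, against 2.82% of all genes). Of the pathway genes, Pxdn (-0.56, adjusted p = 0.000552), Loxl2 (-0.56, 0.0237), Mrc2, an endocytic collagen receptor (-0.54, 0.0359), Smad7 (-0.47, 0.0324) and Reck (-0.38, 0.016) were called in the same limma fit.

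In control embryos the chambers differed for 27 of the 38 members (71.1%), 9 higher and 18 lower in ventricles than in atria. Among all genes 46.9% were called, 26.4% higher and 20.5% lower. The groups did not overlap for 24 members (63.2%), against 43.3% of all genes. The main fibrillar chains were lower in ventricles. Col1a1 had 1146, 1206, 1386 and 1106 CPM in control ventricles, against 2141, 1906, 2369 and 1756 CPM in control atria (-0.75 ± 0.13, limma adjusted p = 0.000132), and Col1a2 (-0.59), Col3a1 (-0.53), Col5a2 (-0.47) and Col24a1 (-0.71) were lower too. Col5a1 was not called (0.18, adjusted p = 0.138), and Col27a1, a fibrillar chain of cartilage, was higher (0.42).

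The type IV chains split by pair. Col4a1 had 1116, 1127, 1246 and 1174 CPM in control ventricles, against 831, 822, 852 and 803 CPM in control atria (0.49 ± 0.06, limma adjusted p = 2.68e-06), and Col4a2 was higher by 0.43. Col4a6 had 35.8, 33.1, 36.8 and 28.3 CPM in control ventricles, against 120, 117, 109 and 102 CPM in control atria (-1.71 ± 0.10, adjusted p = 2.17e-10), and Col4a5 (-0.84), Col4a3 (-0.82) and Col4a4 (-0.59) were lower. Each of the 3 head-to-head pairs, Col4a1 with Col4a2, Col4a4 with Col4a3 and Col4a6 with Col4a5, thus had both genes called in 1 direction.

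On the log2(CPM + 1) scale the highest difference was that of Col15a1 and the lowest that of Col23a1. Col15a1 had 77.8 to 88.8 CPM in control ventricles and 12.4 to 17.1 CPM in control atria (2.39 ± 0.16, limma adjusted p = 6.74e-10), while the other multiplexin, Col18a1, had 348 to 360 CPM in control ventricles and 317 to 347 CPM in control atria and was not called (0.09, adjusted p = 0.258). Col23a1 (ENSMUSG00000063564) had 22.2 to 25.7 CPM in control ventricles and 86.2 to 90.4 CPM in control atria (-1.87 ± 0.09, adjusted p = 4.32e-12), and the other tested transmembrane collagens, Col13a1 (-0.58) and Col25a1 (-0.57), were lower too. Of the fibril-associated chains Col9a3 (1.64), Col9a1 (1.29) and Col14a1 (0.53) were higher and Col16a1 (-0.28) lower. Col9a1 had 11.6, 7.45, 11.7 and 9.35 CPM in control ventricles, against 2.13, 3.91, 5.47 and 2.98 CPM in control atria. Of the beaded-filament chains Col6a1 was higher (0.45) and Col6a3 (-0.44), Col6a6 (-0.91) and Col6a5 (-1.19) were lower. Col6a5 had 0.723, 0.131, 0.357 and 0.238 CPM in control ventricles, against 2.29, 1.83, 2.87 and 1.46 CPM in control atria. Control ventricle 2 lay under its floor of 3 reads (0.158 CPM). At such low levels the size depends on the scale: the difference was -0.41 with a pseudocount of 5 and -2.66 by DESeq2, lower than that of Col23a1. Col7a1, the anchoring fibril chain, was higher (0.52), and Col26a1 (-0.64) and Col8a2 (-0.48) were lower. Of the 27 calls, 21 held in every alternative. Col16a1, Col8a2 and Col7a1 lost theirs without any single control embryo (limma adjusted p 0.0583 to 0.166), and Col16a1 and Col7a1 also without dKO embryo 3 (0.0547 and 0.0515). Col27a1 lost its call without control embryo 1, 3 or 4 (0.107 to 0.235), Col25a1 without control embryo 2 or 3 (0.0684 and 0.0687) and Col4a4 without control embryo 1 (0.128).

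**Figure D4:**
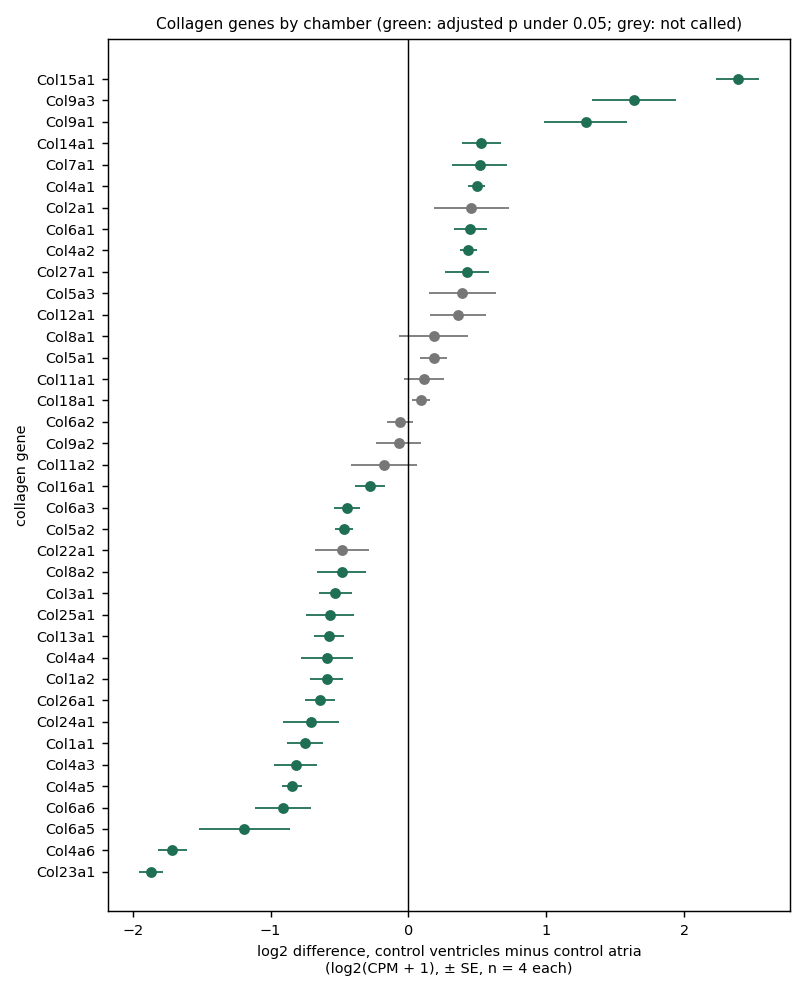
Difference of control ventricles minus control atria on the log2(CPM + 1) scale for the 38 tested collagen genes, sorted, with standard errors and 4 libraries a group. Col15a1, Col9a3 and Col9a1 stand at the upper end and Col23a1, Col4a6 and Col6a5 at the lower end.

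Cell type markers also differed between the chambers, a comparison in which 46.9% of all genes were called (26.4% higher and 20.5% lower). Valve mesenchyme markers summed to 411 to 472 CPM in control ventricles and 108 to 143 CPM in control atria, with 7 of 8 higher, and smooth muscle and pericyte markers to 1819 to 2206 CPM in control ventricles and 884 to 1011 CPM in control atria, with 7 of 10 higher and 2 lower. Epicardial markers summed to 132 to 173 CPM in control ventricles and 439 to 503 CPM in control atria, with 11 of 12 lower. Fibroblast markers summed to 2323 to 2433 CPM in control ventricles and 1963 to 2124 CPM in control atria, with 4 of 12 higher and 3 lower. The part of these cells in the chamber differences of collagens was not tested. Of the pathway lists, biosynthesis in the endoplasmic reticulum had 2 of 22 higher and 12 lower in control ventricles, against those same shares of all genes, among them P3h1 (-0.96), Fkbp10 (-0.65) and Fkbp14 (-0.74). Cross-linking genes had 2 of 11 higher and 6 lower, with Loxl2 higher (0.81) and Lox lower (-1.12).

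Ratios between chains were compared per kilobase, since they do not depend on library scaling. Most of the 11 pairs are partner chains, while Col1a1 over Col3a1, Col4a1 over Col4a5 and Col18a1 over Col15a1 are not. Col6a1 over Col6a2 was 0.702, 0.802, 0.772 and 0.776 in dKO atria, against 0.544, 0.543, 0.556 and 0.495 in control atria, a log2 difference of 0.51 that stayed between 0.48 and 0.55 when any library was left out. Col4a5 over Col4a6 was 2.48, 2.51, 2.42 and 2.61 in dKO atria, against 2.99, 3.01, 3.05 and 3.06 in control atria (-0.27, between -0.29 and -0.26 when any library was left out). The groups did not overlap for these and for Col6a3 over Col6a2 (0.25), each at the lowest p that an exact two-sided permutation can give here (0.0286), with an adjusted p of 0.21 over 22 tests of 11 ratios in 2 chambers. None of the 22 passed 0.05 after adjustment. With only 3 ratios at the lowest possible p none could, so that outcome does not bear on whether these ratios differ. Col1a1 over Col1a2 was 1.23 to 1.37 in dKO atria and 1.31 to 1.43 in control atria, and Col4a1 over Col4a2 was 1.52 to 1.60 in dKO atria and 1.54 to 1.61 in control atria, with overlap in both ratios. In ventricles Col4a5 over Col4a6 was 4.61 to 5.92 in dKO and 5.15 to 6.08 in control libraries, and Col6a1 over Col6a2 0.804 to 0.895 in dKO and 0.698 to 0.8285 in control libraries.

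**Figure D5:**
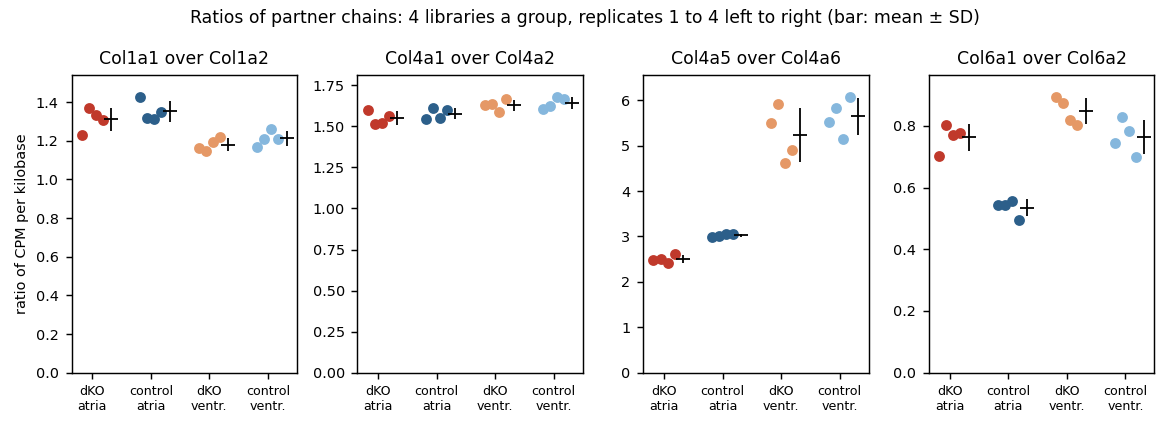
Ratio of CPM per kilobase between 4 pairs of partner chains in each library, with the mean and SD of each group as a bar. Col4a5 over Col4a6 is lower and Col6a1 over Col6a2 higher in every dKO atrium than in every control atrium, and Col4a1 over Col4a2 stays between 1.52 and 1.68 in all 16 libraries.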

How the data were processed

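The authors deposited CPM values for 16118 genes and 16 libraries. Libraries were made from 20 ng of RNA with poly(A) selection and read over 60 bases from a single end, per the labels' protocols. Per the submitters' processing notes, tools included cutadapt and RSEM 1.3.1 and the build was GRCm38. How CPM was scaled, which annotation was used and whether strand was used is not stated. Each deposited CPM value is a whole number of reads plus 0.5 times 1 step per library, and 100% of values gave whole reads within a tolerance of 0.001. Depth over the listed genes was 7.88 to 23.0 megareads. Replicates of a group differed by 6.47 to 25.7 times counting variance (chi-square per degree of freedom, 24 pairs), so no libraries were counted as 1.

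The collagen genes, classes, pathway lists and marker lists were chosen with earlier results of these data known. limma 3.58.1 (R 4.3.3) was fitted to log2(CPM + 1) of the 13950 genes averaging 1 CPM or more, with a mean-variance trend, two-sided, with Benjamini-Hochberg adjustment over all of them and a call at an adjusted p under 0.05. dKO and control were compared per chamber without pairing, since title numbers do not pair embryos, and differences on this scale understate changes of low genes. The chamber comparisons used all 16 libraries with the embryo, which gave both chambers, as a block (consensus correlation 0.108). Labels say that embryos are separate animals. Count tests on the recovered reads used edgeR 4.0.16, which called 1031 genes in atria and 259 in ventricles, and DESeq2 1.42.0 (1546 and 469). Other alternatives were pseudocounts of 0.5 and 5, filters, TMM scaling, leaving out each library or embryo, title number as a covariate and the embryos of title group B alone. The limma fits of the dKO effect were tested on simulated data with changes set in dKO atria and no correlation within an embryo. The control chamber comparison, edgeR and DESeq2 were not tested so. Named were all called members, and the member of each class with most CPM per kilobase of union exon in control libraries (Col1a1, Col4a1, Col6a1, Col14a1, Col18a1, Col26a1, Col8a2 and Col23a1), other members by class, and up to 3 called genes per pathway list. By principal transcript, the length used for every printed level per kilobase and ratio, Col3a1 and Col6a2 would replace Col1a1 and Col6a1. Members were also named where a call appeared in an alternative, after values were seen. Exons of Col4a3, Col5a1, Col6a6, Col9a3, Col15a1 and Col22a1 overlap genes on the opposite strand and those of Col7a1 and Col20a1 genes on the same strand, which leaves their counts uncertain. IDs of 16103 genes matched GENCODE M21.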

Additional observations from a re-analysis of the deposited data

Results flagged for a closer look

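There were 2 libraries that stood apart from the other 3 of their group for a named collagen gene in 52 checks of 4 libraries over 13 genes, where chance flags about 1 in 20. Col1a1 had 1007 CPM in dKO ventricle 2, against 1242 to 1268 CPM in the other dKO ventricles, a gap of 0.90 of the group's range. Col4a6 had 117 CPM in dKO atrium 4, against 161 to 169 CPM in the other dKO atria, a gap of 0.85 of the range. The dKO effect on Col2a1 differed between chambers by -1.92 on the log2 scale in the limma test of that difference (adjusted p = 0.00756), with a positive difference in atria and a negative, uncalled one in ventricles.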

How the results depend on the processing

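The count of called collagen genes in atria depended most on the processing. Against 5 as reported, limma called 1 with no filter on low values, 14 with title number as a covariate (replicate block; 13 higher and 1 lower), 13 in the 4 embryos of title group B and 13 in a fit to all 16 libraries with the embryo as a block. The covariate fit and that of title group B draw nothing from dKO atrium 1, which has no control in its title group. DESeq2 called 11, and leaving out 1 library gave 1 to 12. In ventricles 0 were called as reported, 1 by edgeR and 1 by DESeq2, and 0 to 1 when a library was left out. For the contrast of the dKO effect between the chambers 1 was called, and 1 to 9 without an embryo (2 without dKO embryo 4). The control chamber comparison called 27 (71.1% of members, against 46.9% of all genes) and 25 with no replicate block. Without an embryo it called 22 to 29 (57.9% to 76.3% of members, against 39.1% to 49.1% of all genes). No call changed sign under any alternative run. Of the 5 atrial calls, Col2a1 was lost in 1 of 18 alternatives, Col4a6 and Col5a1 in 7, and Col13a1 and Col14a1 in 8. With no filter all but Col2a1 lost the call, and Col14a1 also lost it with TMM scaling (adjusted p = 0.0503). In the control chamber comparison Col27a1 lost its call with TMM scaling, edgeR and DESeq2, Col7a1 with TMM scaling and edgeR, and both Col7a1 and Col16a1 with no replicate block (adjusted p 0.0506 and 0.0508), and Col16a1 also with no filter (0.0517). Causes were not tested. The shallower dKO ventricle libraries limit what can be seen for the scarcest chains there.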
